A study of Mus musculus with 2 samples.

Results

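MiR-193 and miR-365 are microRNAs, short RNAs that guide silencing proteins to messenger RNAs, and mice carry each of them in duplicate. Their 4 genes form 2 clusters, and all 4 were taken by symbol from a table of 1973 microRNA genes: Mir193a with Mir365-2 on chromosome 11, and Mir193b with Mir365-1 on chromosome 16. Of the 4 genes, 3 reached 10 counts in both libraries, as did 365 of the 1973 genes, which are called detected from here on. Mir365-1, with 3 and 2 counts, did not.

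The data came from skeletal muscle of B6NCrl mice at postnatal day 0, with RNA under 30 bases sequenced in 2 libraries, each from a piece of tissue of 1 pup of unrecorded sex. Both libraries belong to 1 untreated group and are numbered as separate biological replicates, although they carry the same donor record. No condition, genotype or other tissue stands beside them, brown fat included, so levels and the difference between the libraries are what can be given. The labels list separate tissue samples but do not say outright that the pups were different animals, so spreads over the libraries may be partly technical.

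A microRNA is cut from a folded precursor, the hairpin, which can give a mature strand from either arm (5p and 3p), and bases 2 to 8 of a mature strand, the seed, do most of the pairing with target messenger RNAs. The miR-193b and miR-365 cluster is known from cultured mouse brown fat precursors, which share an origin with muscle cells. There its loss was linked to poorer fat differentiation and to muscle gene expression, while mice that lacked the chromosome 16 cluster still formed brown fat. MiR-193 and miR-365 are made in many tissues and are not markers of one cell type.

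The mature sequences are shown because shared letters decide which reads a count table can give to 1 gene. They are RefSeq sequences on GRCm38.p6, all on the plus strand, printed 5′ to 3′ with the seed in capitals.
miR-193a-3p (Mir193a, chr11:79712009-79712030): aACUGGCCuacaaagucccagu
miR-193b-3p (Mir193b, chr16:13449570-13449591): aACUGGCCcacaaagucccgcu
miR-193a-5p (Mir193a, chr11:79711975-79711996): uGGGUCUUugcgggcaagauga
miR-193b-5p (Mir193b, chr16:13449533-13449554): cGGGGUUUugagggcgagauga
miR-365-3p (Mir365-2, chr11:79726467-79726488, and Mir365-1, chr16:13453895-13453916): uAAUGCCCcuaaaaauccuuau
miR-365-2-5p (Mir365-2, chr11:79726428-79726450): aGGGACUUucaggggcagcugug
miR-365-1-5p (Mir365-1, chr16:13453855-13453877): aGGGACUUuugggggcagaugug

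The miR-193 3p strands have the seed ACUGGCC in common, which 2 genes of the RefSeq microRNA table hold, Mir193a and Mir193b. Outside the seed they differ at 3 of 22 bases, namely C9U, G20A and C21G (the base of miR-193b first, then the position from the 5′ end, then the base of miR-193a). Their 5p strands differ at 5 bases, C1U, G5U, U6C, A11C and G16A, of which positions 5 and 6 fall in the seed, so these strands do not share one. The miR-193 hairpins have no identical stretch longer than 10 bases, and each of their 4 mature strands was found in 1 GENCODE transcript gene alone.

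For miR-365 the 3p strand is the same 22 bases in both genes, and the 5p strands share the seed GGGACUU and differ at C10U, A11G and C19A (miR-365-2 first). The hairpins are printed with the longest stretch that both contain in capitals, since this stretch takes in the whole miR-365-3p strand.
Mir365-2 (chr11:79726400-79726511): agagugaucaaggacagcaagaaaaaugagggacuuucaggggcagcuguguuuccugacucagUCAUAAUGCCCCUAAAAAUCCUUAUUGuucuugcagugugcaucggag
Mir365-1 (chr16:13453840-13453926): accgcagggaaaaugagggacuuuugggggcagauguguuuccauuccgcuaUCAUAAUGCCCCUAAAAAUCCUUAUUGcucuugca
The stretch has 27 bases. A read that lies wholly within it fits both genes, and the authors set reads that fit more than 1 place apart, in a row that names no gene. That row held 28.0% of all reads in replicate 1 and 26.9% in replicate 2. How many of these were miR-365-3p is not recorded. The counts of Mir365-2 and Mir365-1 are therefore lower limits for the reads these genes gave, whichever strand those came from. The miR-193 genes carry no such stretch with each other.

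The clusters differ in their layout. Mir193a (chr11:79711969-79712034, 66 bases) and Mir365-2 (112 bases) lie 14.4 kb apart, and no other GENCODE gene overlaps either of them. Mir193b (chr16:13449523-13449601, 79 bases) and Mir365-1 (87 bases) lie 4.24 kb apart. Both fall between exons of Gm15738, a noncoding gene on the opposite strand, and 0 of its 21 annotated exons overlap them. The only other annotated microRNA gene within 50 kb of a member was Mir6365, 17.2 kb from Mir365-1, with 0 counts in both libraries.

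**Figure D1:**
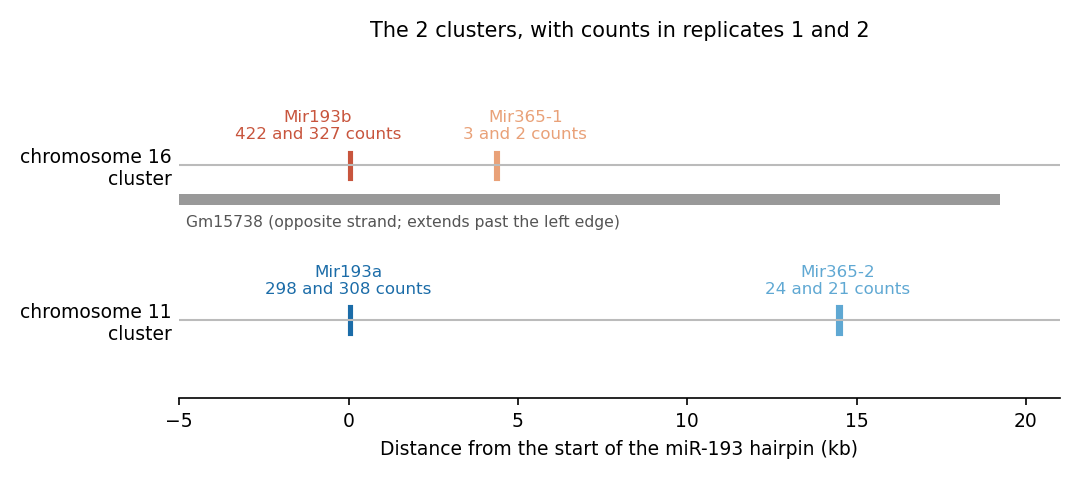
Map of both clusters, with the distance from the start of the miR-193 hairpin in kb on the x axis and the hairpins as coloured bars to scale. The miR-365 hairpin lies 14.4 kb beyond Mir193a but 4.24 kb beyond Mir193b, and in each cluster the miR-193 gene holds most of the counts printed above the bars.

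Replicate 1 held 7955914 counts on the annotated strand of microRNA genes and replicate 2 held 10816295. Levels are given as CPM, counts per 1e6 of these, and no length term is needed, since a read of this size stands for a whole mature strand of 22 or 23 bases. A count of 3 stood for 0.377 CPM in replicate 1 and 0.277 CPM in replicate 2. Intervals are exact 95% intervals and cover counting error alone. The tissue label could be checked against muscle microRNAs: Mir206 ranked 1 of the detected genes, and all 4 skeletal muscle markers were detected. These markers were chosen with earlier results of these data known. Of the 8 muscle-enriched genes in the tables, which include them, 7 were detected. Mir1a-1, Mir133a-1, Mir1b and Mir133a-2 stood at 8.26 CPM or less. Mir208a, the cardiac marker, had 13.8 CPM ± 2.37 (SD, n = 2). Of 5 neural markers in the tables, 0 were detected, with Mir124a-1, Mir124a-2 and Mir124a-3 at 0 counts in both libraries. The neural markers are numbered as copies, and reads that fit more than 1 copy would be counted for none. Their low counts therefore cannot show how little neural tissue was present.

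By counted reads, Mir193b and Mir193a were the higher members by far, and they stood in the lower part of the detected range. Mir193b had 422 counts (53.0 CPM) in replicate 1 and 327 counts (30.2 CPM) in replicate 2, a mean of 41.6 CPM ± 16.1 (SD, n = 2). Mir193a had 298 counts (37.5 CPM) in replicate 1 and 308 counts (28.5 CPM) in replicate 2, a mean of 33.0 CPM ± 6.35 (SD, n = 2). Both genes were higher in CPM in replicate 1, and the libraries differed more in Mir193b. By mean CPM they ranked 210 and 218 of 365, somewhat past the middle of the list and below its median level of 87.0 CPM.

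Mir365-2, the chromosome 11 copy, was counted 24 times in replicate 1 (3.02 CPM, interval 1.93 to 4.49) and 21 times in replicate 2 (1.94 CPM, interval 1.20 to 2.97). Its mean was 2.48 CPM ± 0.760 (SD, n = 2), rank 320 of 365. Mir365-1, the chromosome 16 copy, was counted 3 times in replicate 1 (0.377 CPM, interval 0.0778 to 1.10) and 2 times in replicate 2 (0.185 CPM, interval 0.0224 to 0.668). These counts are at or below the floor of 3 counts, so its level is not resolved at this depth. The counting intervals of the miR-365 genes did not overlap within either library.

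**Figure D2:**
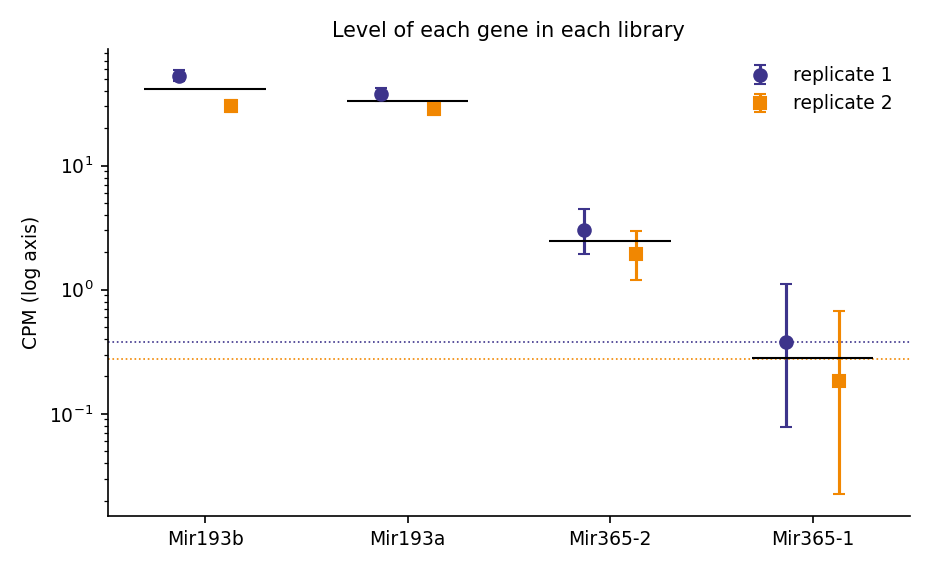
CPM of each gene (log axis) in replicate 1 (circles) and replicate 2 (squares), with exact 95% counting intervals, the mean of both as a black bar and 3 counts in each library as dotted lines. The miR-193 genes lie between 28.5 and 53.0 CPM, Mir365-2 near 2 to 3 CPM and Mir365-1 at or under the dotted lines.

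The order by counted reads was therefore Mir193b, Mir193a, Mir365-2, Mir365-1 in both libraries, but its first step was clear of counting error in replicate 1 alone. The means of Mir193b and Mir193a differed by less than the SD of Mir193b. Mir193a exceeded Mir365-2 12.4-fold in replicate 1 and 14.7-fold in replicate 2 (intervals 8.19 to 19.7 and 9.43 to 24.0), far beyond the spread of either gene. No test was run on these orders, because an exact sign-flip permutation over 2 libraries cannot go below p = 0.5 (two-sided).

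Together the 4 genes held 747 counts in replicate 1 and 658 in replicate 2. This was 0.00939% of annotated-strand microRNA counts in replicate 1 (Clopper-Pearson interval 0.00873 to 0.0101%) and 0.00608% in replicate 2 (0.00563 to 0.00657%). The miR-193 genes made up 96.4% ± 0.0842 of the members' counts (SD, n = 2). The libraries had this share in common while their totals differed. Reads within the stretch common to both miR-365 genes are counted for neither, and how many there were is not recorded. The share is therefore an upper limit for the share of all reads that the members gave, and its SD does not cover those reads. The members' totals are lower limits for the same reason. The miR-365 genes gave 27 counts in replicate 1 and 23 in replicate 2.

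Between paralogs, the chromosome 16 copy of miR-193 led in replicate 1 alone. Mir193b exceeded Mir193a 1.42-fold in replicate 1 (interval 1.22 to 1.65) and 1.06-fold in replicate 2 (interval 0.906 to 1.24). The second interval takes in 1, and the mean ratio of 1.24 ± 0.251 (SD, n = 2) rests on replicate 1. The clusters as wholes showed the same, with 425 counts on chromosome 16 against 322 on chromosome 11 in replicate 1, and 329 against 329 in replicate 2.

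For miR-365 the lead was with chromosome 11. Mir365-2 exceeded Mir365-1 8-fold in replicate 1 (interval 2.43 to 41.5) and 10.5-fold in replicate 2 (interval 2.57 to 92.4). These ratios are of reads that fit 1 place, and which part of the hairpin those reads cover is not recorded, so they are not ratios of the common miR-365-3p strand made by each gene. Their wide intervals come from the 3 and 2 counts of Mir365-1.

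Within the chromosome 16 cluster, Mir193b exceeded its neighbour Mir365-1 141-fold in replicate 1 (interval 47.8 to 685) and 164-fold in replicate 2 (interval 44.9 to 1356). Within the chromosome 11 cluster the step in counted reads was smaller, at the 12.4-fold and 14.7-fold given above for Mir193a over Mir365-2. The intervals of the clusters did not overlap in either library. Reads of miR-365-3p within the shared stretch fit both miR-365 genes and are counted for neither. These ratios are therefore upper limits for the ratios of all reads that the genes gave. Which cluster had the larger step over all reads cannot be told from them.

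Among 87 genes of the tables with a mature strand that another gene also gives, as both miR-365 genes have, 44 (50.6%) were detected, with a median of 29.4 CPM. Among 829 genes without one, as both miR-193 genes are, 291 (35.1%) were detected, with a median of 98.3 CPM. These classes do not take in all 1973 genes of the tables. The medians of 29.4 and 98.3 CPM are of detected genes alone. Mir365-2 stood below the first, and both miR-193 genes stood below the second. Over all genes of each class, detected or not, the medians were 1.38 and 0.314 CPM. Mir365-2 and both miR-193 genes stood above these, while Mir365-1, with 0.281 CPM, stood below that of its class. The split into these classes was made after the values were seen and is a description.

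**Figure D3:**
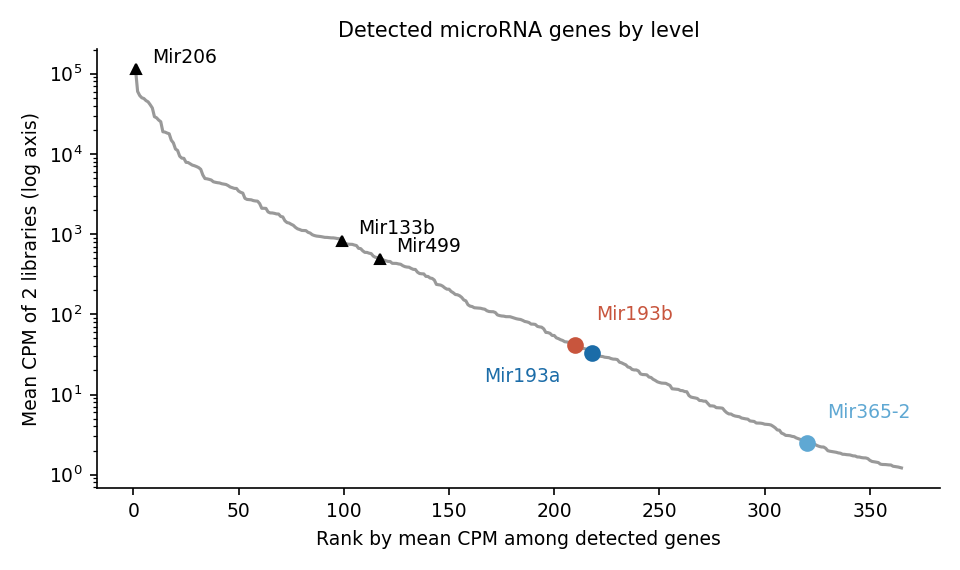
Mean CPM over 2 libraries (log axis) against rank for the 365 detected microRNA genes (grey line), with the detected members as circles and 3 muscle microRNAs as triangles. Mir193b and Mir193a lie at ranks 210 and 218 and Mir365-2 at rank 320, all below Mir133b and Mir499.

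Set against microRNAs made mainly in muscle, the members were scarce. Mir206 averaged 113917 CPM ± 9579, 3006-fold ± 1395 above Mir193b and 3549-fold ± 974 above Mir193a (SD, n = 2). Mir499, which lies within a myosin gene, was 12.4-fold ± 3.07 above Mir193b, and Mir133b, the partner of Mir206, 21.5-fold ± 8.04 above it. Of the 8 muscle-enriched genes in the tables, 4 stood above Mir193b (Mir206, Mir133b, Mir208b and Mir499) and 4 below Mir193a. Those 4 below were Mir1a-1 (8.26 CPM ± 2.53), Mir133a-1 (5.73 ± 0.255), Mir1b (1.78 ± 0.685) and Mir133a-2 (1.18 ± 0.424). Mir1a-1, Mir133a-1 and Mir133a-2 are numbered as copies, and reads that fit more than 1 copy are counted for none. Their levels may therefore understate miR-1a and miR-133a, by an amount not recorded. Mir1b had 192 and 105 counts on the opposite strand in replicates 1 and 2, against 18 and 14 on the annotated strand.

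Other microRNAs linked to brown or beige fat were looked up as a list of 23 genes, of which 22 were matched in the tables and 21 were detected. The gene without a match was Mir378a, so its level is not part of the values of this list. Mir206 belongs to this list for its muscle side, and Mir133b, Mir133a-1 and Mir133a-2 because miR-133 lowers Prdm16, a regulator of the brown fat fate. Of the 22 genes, 16 stood above Mir193b and 6 below Mir193a. The 6 were Mir30c-1, Mir30c-2, Mir196a-1, Mir26a-1, Mir133a-1 and Mir133a-2, all numbered as copies. Reads that fit more than 1 copy are not counted for them, so these levels may be lower limits. Mir196a-2 and Mir26a-2, which stood above Mir193b, are numbered as copies too. After Mir206, the highest of the 22 matched genes was Mir27b, an inhibitor of fat differentiation, with 1836 CPM ± 59.5. Next was Mir196a-2, whose microRNA promotes browning of white fat, with 1287 CPM ± 213. Mir93 followed with 1031 CPM ± 403, and Mir455, which promotes brown fat differentiation, with 922 CPM ± 38.0 (SD, n = 2). Mir155, an inhibitor of brown fat differentiation, was close to Mir193b with 45.2 CPM ± 21.3. The median of the detected list was 213 CPM, beside 87.0 CPM for all detected genes, so both miR-193 genes stood below either median. The study has no fat tissue to compare, and several genes of this list share sequence with copies, as Mir27b does with Mir27a.

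**Figure D4:**
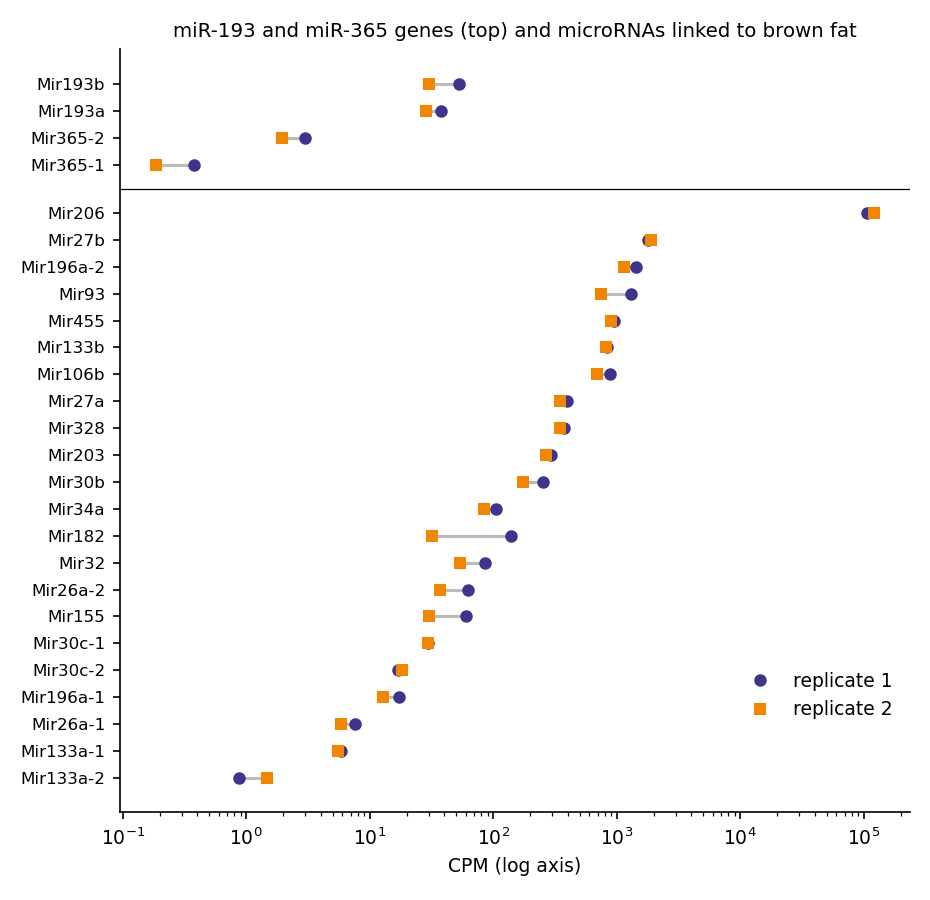
CPM (log axis) in replicate 1 (circles) and replicate 2 (squares) for the 4 miR-193 and miR-365 genes above the line and 22 microRNA genes linked to brown or beige fat below it, each ordered by mean. Mir193b and Mir193a lie near Mir155 and Mir30c-1, and Mir182 has the widest gap between the libraries in the lower panel.

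The libraries were compared gene by gene as log2 ratios of replicate 1 over replicate 2, after trimmed-mean (TMM) scaling. This sets 1 library against 1 library, so no p-value is given and a gene was called apart at 2-fold. Of the 3 detected members, 0 were apart, against 30 of 365 detected genes (8.22%) and 12 of the 91 that lie between 10 and 100 CPM (13.2%), a window set after the members' levels were seen. With 3 members, a count of 0 does not set them apart from that background. The ratio was 0.57 for Mir193b (interval 0.35 to 0.78), 0.15 for Mir193a (-0.08 to 0.38) and 0.39 for Mir365-2 (-0.52 to 1.31). With TMM, the interval of Mir193b leaves out 0 and the other intervals take it in.

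All 3 ratios were above 0, as were 52.6% of detected genes and 62.6% of those between 10 and 100 CPM. The median size of the ratio, sign aside, was 0.31 over all detected genes and 0.35 in that window, so Mir193b differed by more than a typical gene of its level, and Mir193a by less. Without TMM, scaling by library totals raised every ratio by 0.25, which moved Mir193b to 0.81 and Mir193a to 0.40 (interval 0.16 to 0.63, which then leaves out 0 too), while the median of all detected genes moved to 0.26. This shift is 1 constant for all genes, so the place of the members relative to that median is the same by construction.

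**Figure D5:**
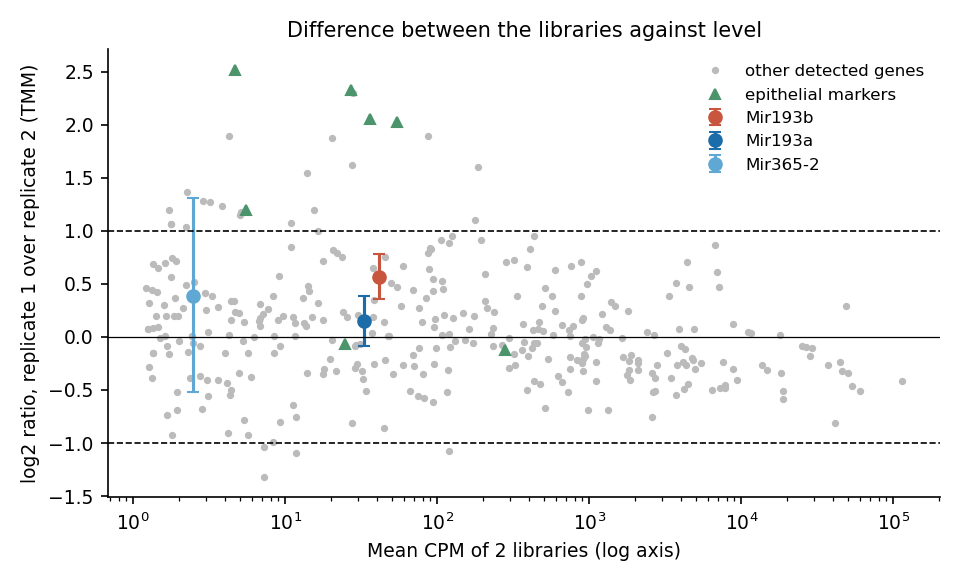
Log2 ratio of replicate 1 over replicate 2 (TMM) against mean CPM (log axis) for detected genes (grey), with epithelial markers as triangles and the detected members as circles with 95% counting intervals; dashed lines mark 2-fold. The members lie at 0.57, 0.15 and 0.39, inside the dashed lines, while 5 of the 7 epithelial markers lie above the upper one.

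Markers of muscle and of other cell types were read beside the ratio of Mir193b. Of the 7 epithelial markers, 5 (Mir429, Mir200c, Mir200b, Mir141 and Mir200a) were at least 2-fold higher in replicate 1. Mir203, the highest of the list with a mean of 280 CPM, had a TMM ratio of -0.12, and Mir205 one of -0.07. The list summed to 531 CPM in replicate 1 and to 334 CPM in replicate 2. Mir182, which belongs to the fat list, had 141 CPM in replicate 1 and 31.9 CPM in replicate 2. Of the detected genes of that list, it alone was at least 2-fold apart. Both erythroid markers were above 0, with sums of 583 CPM in replicate 1 and 286 CPM in replicate 2, while the endothelial marker Mir126a had a ratio of -0.32. Of the 3 leukocyte markers looked up, Mir142 was not matched in the tables, so their sum leaves it out. In the same order of replicates, the leukocyte markers Mir223 and Mir150 summed to 574 and 448 CPM. The smooth muscle markers summed to 31531 and 28507 CPM, and the cartilage marker Mir140 had 1257 and 1073 CPM. These CPM are not TMM-scaled: with TMM the ratio was 0.14 for Mir223 and -0.21 for Mir150 among the leukocyte markers, -0.11 for Mir143, which holds most of the smooth muscle sum, and -0.02 for Mir140. The 4 skeletal muscle markers summed to 109261 CPM in replicate 1 and 122717 CPM in replicate 2, and their median TMM ratio was -0.26, with 1 of 4 above 0. No marker of fat cells was among these lists. The part of such cells in the level of Mir193b was not tested, and in whole tissue fewer cells of a type and less RNA per cell cannot be told apart.

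The genes nearest in level over both libraries were found by the distance of log2(CPM + 1) over the 2 libraries, as a description only, and their CPM are given for replicate 1 and then replicate 2. For Mir193b these were Mir669c (53.7 and 30.4 CPM, distance 0.019), Mir155 (60.3 and 30.1 CPM, distance 0.18) and Mir6944 (46.3 and 30.6 CPM, distance 0.19). For Mir193a they were Mir505 (32.8 and 28.9 CPM, distance 0.19), Mir144 (34.6 and 25.3 CPM, distance 0.20) and Mir449a (40.6 and 33.4 CPM, distance 0.25). For Mir365-2 they were Mir466n (3.14 and 1.85 CPM, distance 0.064), Mir218-1 (2.77 and 1.66 CPM, distance 0.17) and Mir6240 (2.64 and 2.22 CPM, distance 0.19). The paralog was among the 3 nearest for none of the 3 detected members. Over 2 libraries such nearness says little beyond the level itself.

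Counts on the opposite strand were absent at the members but for 1 read at Mir193a in replicate 2, 0.324% of its counts there. At Mir193b and Mir365-1, where Gm15738 runs on the opposite strand, 0 counts were found on it in both libraries.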

How the data were processed

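The authors deposited 1 table of raw counts per library, in whole numbers for 1973 microRNA genes, and 4 further rows of reads without a gene. Per the file headers in the accompanying readme, reads were placed on mm10 and counted over GENCODE M4. Aligner and counter: not given in the sources used here. Column 3 was read as the annotated strand, an inference from its holding most counts. The 4 rows stayed out of totals: reads in more than 1 place (28.0% and 26.9% of reads in replicates 1 and 2), unmapped (16.0% and 13.4%), in no gene on the annotated strand (7.43% and 8.35%), and ambiguous (0).

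Symbols and coordinates came from GENCODE M21 on GRCm38, the same assembly as mm10, by ID without version (1894 of 1973 matched). Sequences came from RefSeq (GRCm38.p6), which held all 4 members. Exact matches were sought in GENCODE M21 transcripts, not in the genome.

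CPM used totals of annotated-strand counts. Ratios between libraries used TMM (factors 1.09 and 0.918, edgeR 4.0.16, R 4.3.3). Python 3.11.15, pandas 2.3.3, numpy 2.4.6, scipy 1.17.1 and matplotlib 3.10.9 did the rest. No p-value was computed, since there is 1 group of 2 libraries. Named genes were the members, the 3 nearest to each in level, the listed genes up to the 5 highest of each list with other list genes by choice after their values were seen, and microRNA genes within 50 kb. Members and lists were chosen with earlier results of these data known. Alternatives were either-strand counts, other denominators, library totals, DESeq2 1.42.0 size factors, count minimums of 1 and 50, a 1.5-fold minimum and each replicate left out.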

Additional observations from a re-analysis of the deposited data

How the results depend on the processing

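The alternatives run changed no sign among the log2 ratios of the members. With all reads as the denominator, mean CPM was 20.6 for Mir193b, 16.4 for Mir193a, 1.23 for Mir365-2 and 0.139 for Mir365-1, and the members' share was 0.00384%. Counts on either strand, where more genes pass the minimum, moved the ranks to 221, 229 and 331 for Mir193b, Mir193a and Mir365-2. Library totals moved the log2 ratios to 0.81 for Mir193b and 0.40 for Mir193a. The number of genes at least 2-fold apart was 30 of 365. It was 42 of 365 with library totals, 30 of 365 with DESeq2 size factors and 31 of 375 with counts on either strand, and became 115 of 591 with a count minimum of 1, 15 of 278 with a minimum of 50, and 84 of 365 with a 1.5-fold minimum. The cause of these moves, beyond the changed number of genes or reads, was not tested.

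With 1 replicate left out, mean CPM lay between 30.2 and 53.0 for Mir193b, 28.5 and 37.5 for Mir193a, 1.94 and 3.02 for Mir365-2, and 0.185 and 0.377 for Mir365-1. With 2 libraries, leaving 1 out always keeps a mean within its SD, so these values are the libraries themselves and no check of stability. The ranks lay between 205 and 216 for Mir193b, 219 and 221 for Mir193a, and 317 and 323.5 for Mir365-2. The ratio of Mir193b to Mir193a was 1.06 without replicate 1 and 1.42 without replicate 2. Mir365-1 had too few counts for a ratio between libraries, and Mir365-2 for one at the minimum of 50. No paired analysis was possible because the series has 1 group. Depth limits Mir365-1 and Mir365-2 the most, since their levels rest on 2 to 24 counts.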
